A study of Mus musculus with 18 samples.

Results

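The account covers 10 genes whose products act in the fusion of myoblasts or in the repair of the muscle cell membrane, of 35275 genes listed in the expression table. They were chosen by name: Tmem8c (the symbol used here for myomaker, also called Mymk), Cdh15, Cdh2, Ncam1, Jam2, Jam3, Adam12, Dysf, Myof and Cav3. All 10 matched 1 gene identifier each. Skeletal muscle fibers form when single myoblasts leave the cell cycle, recognize each other through adhesion molecules and merge into a multinucleated myotube. Cadherins, neural cell adhesion molecule and junctional adhesion molecules hold the partners together, and myomaker and its small partner myomixer (Mymx) then drive the mixing of the membranes. Ferlins such as dysferlin and myoferlin bind calcium and phospholipid and bring vesicles to the plasma membrane, where they serve both fusion and the patching of tears, while caveolin 3 is the muscle caveolin.

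The cells were C2C12, an established line of mouse myoblasts, of a stock labelled PAX7 negative. Control cells were labelled wild type. They were set against cells overexpressing the spliced transcript of the long noncoding RNA MUNC (spliced cells) and cells overexpressing its genomic, unspliced form (genomic cells). Each line was sampled in growth medium with 20% fetal bovine serum (GM) and after 3 days in medium with 2% horse serum (DM3), with 3 biological replicates in each of the 6 groups. How the overexpressing lines were made, and whether each was 1 clone, was not given in the sources used here, and MUNC itself was not analysed here. Poly(A) RNA was sequenced. Groups were taken from the sample titles, with which another label, naming myoblasts or myotubes, disagreed in 9 of the 18 samples. The series title places the study in the question of which promyogenic genes the different forms of MUNC regulate.

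Depth was between 38416702 and 68788327 reads a library. The log2 profiles of libraries of 1 group correlated at 0.980 to 0.996 across genes, above the 0.868 to 0.975 between groups. The labelled cell type was checked against its markers. Myf5, a myogenic factor, was between 20.0 and 125 FPM in every library, Pax7 was at most 0.147 FPM, and Myod1 was at most 0.221 FPM in the 6 control libraries against 1.66 FPM or more in all others. Of 5 fibroblast markers, Thy1 was at most 0.0368 FPM, whereas Col1a1 was at least 767 FPM. Kdr, Pecam1 and Tie1 of 5 endothelial markers, Adipoq and Plin1 of 5 adipocyte markers, and Ptprc, Csf1r and Adgre1 of 4 macrophage markers stayed under 0.5 FPM in all 18 libraries. Others of these lists were read: group means reached 7.14 FPM for Cdh5 (genomic GM), 1.26 FPM for Tek, 13.8 FPM for Cebpa (both spliced DM3), 11.01 FPM for Pparg (spliced GM) and 3.85 FPM for Cd68 (control GM).

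Levels are given as FPM, the deposited counts of reads per gene scaled for library size. Differences between groups are log2 changes of FPM + 1, so that a change of 1 is close to a doubling for a well expressed gene and less than that for a gene near 0. Every test was limma with Benjamini-Hochberg adjustment over 13869 genes, and a gene was called at an adjusted p under 0.05. Of the 10 genes, 9 passed the filter of 0.5 FPM in at least 3 libraries. Cav3 did not and was not tested. A change on differentiation means the change from GM to DM3 within a line. How far the cells of each line had differentiated in DM3 was not tested. The p-values measure the spread between the deposited replicates, which the series calls biological. In cultures sequenced in bulk, fewer cells expressing a gene and less RNA per cell cannot be told apart.

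**Figure D1:**
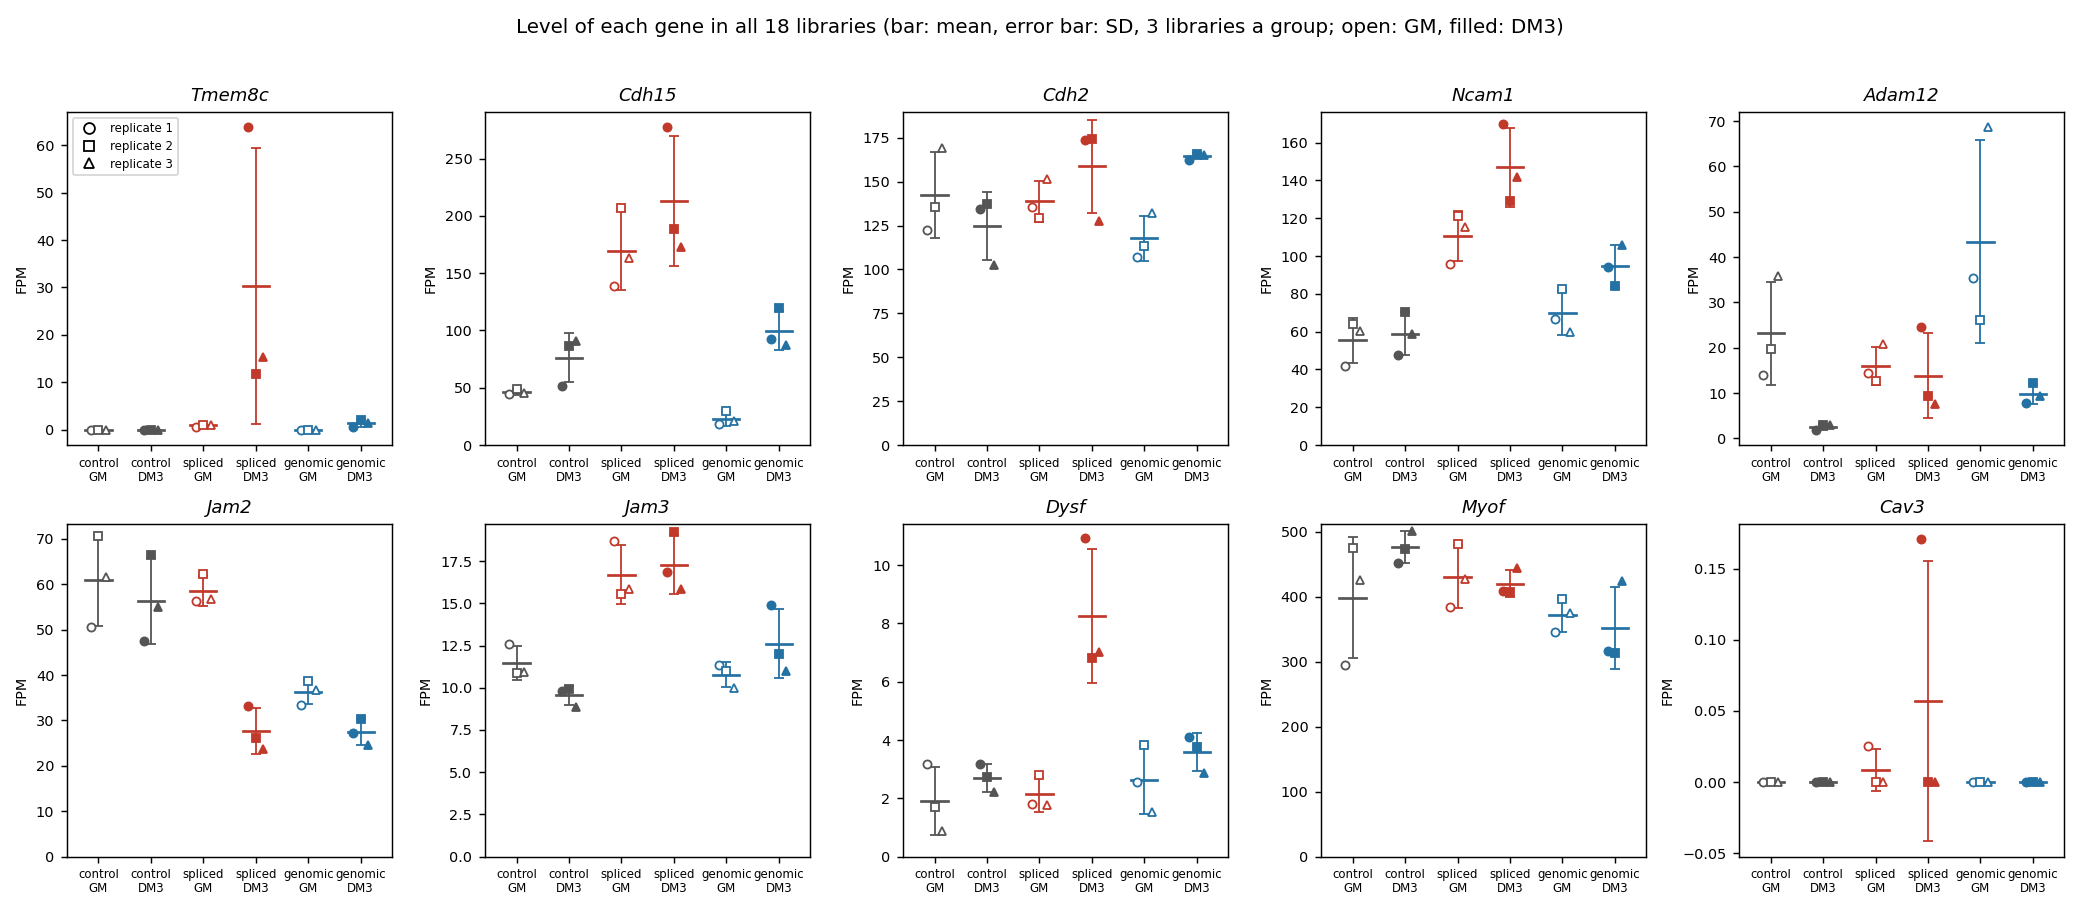
FPM of each of the 10 genes (vertical axis, 1 panel a gene) in the 6 groups (horizontal axis), with 1 point per library, a bar at the mean and an error bar of 1 SD over 3 libraries. Tmem8c and Dysf stood highest in the spliced DM3 libraries, where replicate 1 was above the other two for both, and Adam12 was lowest in control DM3.

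Tmem8c encodes myomaker, a membrane protein of muscle that is needed on both fusing cells. It lies on chromosome 2 (27061636 to 27072179, minus strand, GRCm38). Control cells held almost none of it, with a single read over the 3 GM libraries and 2 reads, both in replicate 1, over the 3 DM3 libraries. Genomic cells had 0 reads in all 3 GM libraries, and spliced cells had 27, 58 and 62 reads in GM (0.681, 1.06 and 1.12 FPM). After 3 days in DM3 the spliced libraries reached 63.7, 11.8 and 15.3 FPM and the genomic libraries 0.693, 2.17 and 1.40 FPM. The transcript was therefore read in quantity in 3 of the 6 groups only, and most of it in spliced DM3, whose lowest library lay above the highest genomic one.

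On differentiation Tmem8c rose in spliced cells by 3.62 on the log2 scale (SE 0.39, limma adjusted p 7.43e-06) and in genomic cells by 1.23 (SE 0.39, limma adjusted p 0.0157). The control change was 0.01 (limma adjusted p 0.986). In DM3, spliced cells exceeded control by 4.56 (limma adjusted p 1.73e-07) and genomic cells by 3.35 (limma adjusted p 3.67e-06), and genomic cells exceeded control by 1.21 (limma adjusted p 0.0219). These log2 changes understate a gene near 0, so pooled reads per group were compared as well. Scaled for depth, spliced DM3 held 30.1 times the Tmem8c reads of spliced GM (95% exact counting interval 25.5 to 35.7) and 19.8 times those of genomic DM3 (interval 17.4 to 22.6). Against the 2 reads of control DM3 the ratio was 2320 for spliced cells (interval 642 to 19159) and 117 for genomic cells (interval 32.1 to 973). Genomic DM3 was at least 87.9-fold higher than genomic GM, taking 3 reads over the group as the floor for its 0 reads. These intervals cover counting error only, and replicate 1 of spliced DM3 gave 3357 of its 4885 pooled reads. Without that library, an alternative chosen after seeing the data, spliced DM3 held 13.8 times the reads of spliced GM (interval 11.6 to 16.5), 9.08 times those of genomic DM3 (interval 7.94 to 10.4) and 1065 times those of control DM3 (interval 294 to 8799).

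In GM the spliced libraries stood above every control and genomic library, with 147 pooled reads against 1 and 0. By limma this difference was 0.95 against control (SE 0.39, adjusted p 0.0710) and 0.96 against genomic cells (adjusted p 0.0690), neither of which passed. Both were called with a pseudocount of 0.1, in a fit of only the groups compared, and by edgeR and DESeq2 on recovered reads, where the adjusted p against control was 0.00064 and 2.78e-06. They were also called without spliced DM3 replicate 1 or 2. The pooled read ratio against control was 177, with a counting interval of 31.3 to 7038. In the authors' deposited table Tmem8c was 7.32 higher on the log2 scale in spliced than in control GM, with an adjusted p of 2.93e-07.

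Replicate 1 of spliced DM3 held 3357 Tmem8c reads, against 679 and 849 in the other replicates. It also stood apart for Myog, the transcription factor that drives terminal differentiation, at 226 FPM against 52.6 and 41.0 FPM. Myog was lower in genomic DM3, at 7.89, 14.7 and 6.498 FPM, and in control DM3, at 0.192, 0.434 and 0.405 FPM. Without spliced DM3 replicate 1 the Tmem8c rise in spliced cells was 2.90. The excess over control DM3 was then 3.84 and that over genomic DM3 was 2.63, and all 3 were still called. The summed level of 8 skeletal muscle markers ran from 269 to 931 FPM over the spliced DM3 libraries, from 931 to 1099 FPM in genomic DM3 and from 166 to 202 FPM in control DM3. Des gave 820.4 to 1010.0 FPM of the genomic sum, whereas the contractile genes Acta1 and Myh3 had higher means in spliced DM3 (119 and 79.8 FPM) than in genomic DM3 (21.8 and 9.64 FPM). The part of overall differentiation in the Tmem8c difference was not tested. The genomic calls were less firm in the main fit. That against control DM3 was lost without replicate 2 or 3 of either group (log2 changes of 0.99 to 1.20) and without a filter on low values. That against genomic GM was lost without genomic DM3 replicate 2 (1.01). Without spliced DM3 replicate 1 both log2 changes were the same and both were called (limma adjusted p 3.35e-05 and 2.45e-05). In the authors' deposited table Tmem8c was 6.82 higher in genomic than in control DM3, with an adjusted p of 2.16e-08.

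Mymx, the gene of myomixer, followed the same order of groups at the level of reads. Spliced DM3 had 11.98, 5.65 and 3.94 FPM and genomic DM3 1.78, 3.19 and 1.03 FPM, whereas no control library was over 0.138 FPM. Mymx rose on differentiation by 2.17 in spliced cells (limma adjusted p 4.11e-05) and by 1.51 in genomic cells (limma adjusted p 0.000324). In DM3 it was higher in spliced than in genomic cells by 1.39 (limma adjusted p 0.000763). In pooled reads that difference was 3.36-fold (95% exact counting interval 2.98 to 3.79), and without spliced DM3 replicate 1 it was 2.28-fold (interval 1.99 to 2.61). In GM the spliced excess over control did not pass the test (0.71, limma adjusted p 0.0592), although edgeR and DESeq2 called it on recovered reads (adjusted p 0.001001 and 2.29e-06). Spliced GM held 110 Mymx reads and control GM 4, all of them in replicate 1, a ratio of 33.1 scaled for depth (interval 12.6 to 124).

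**Figure D2:**
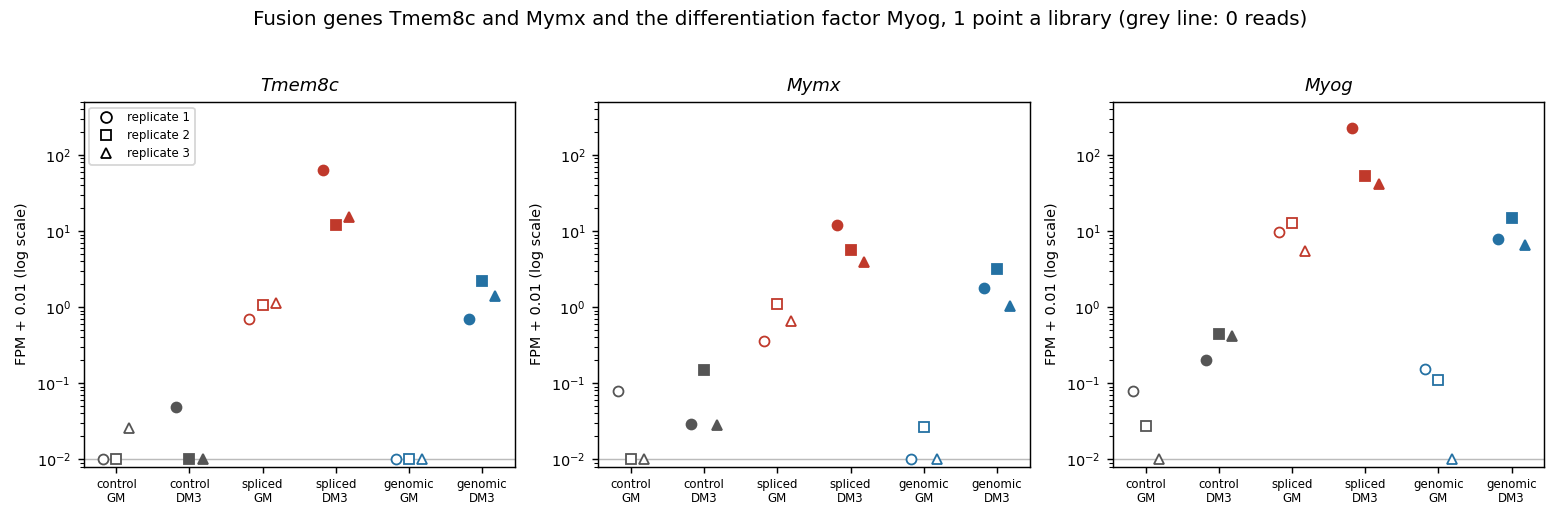
FPM + 0.01 of Tmem8c, Mymx and Myog (vertical axes, log scale) in each of the 18 libraries, by group; the grey line marks 0 reads. Spliced GM libraries lie above all control and genomic GM libraries in each panel, and spliced DM3 replicate 1 is the highest point for each gene.

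The 5 other genes whose log2(FPM + 1) ran most like that of Tmem8c over the 18 libraries were Actc1 (Pearson r 0.981), Mybph (0.973), Igf2 (0.970), Trim72 (0.967) and Scn10a (0.966). Actc1 encodes cardiac actin, which developing skeletal muscle also uses, and Mybph a myosin-binding protein. Igf2 encodes insulin-like growth factor 2, and Trim72 a membrane repair protein of muscle. Each had its highest mean in spliced DM3: 17.8 FPM for Actc1, 25.4 FPM for Mybph, 166 FPM for Igf2, 4.05 FPM for Trim72 and 2.62 FPM for Scn10a. The genes were picked by this likeness, and Tmem8c itself was highest in spliced DM3, so their high means there follow largely from the selection. The libraries also share their lines and media, so these values describe likeness only.

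Cdh15 encodes M-cadherin, the calcium-dependent adhesion molecule of myoblasts and satellite cells, and lies on chromosome 8 (122847966 to 122867397, plus strand, GRCm38). The GM libraries of the 3 lines did not overlap: genomic cells had 18.1, 29.3 and 21.2 FPM, control cells 44.3, 48.7 and 45.7 FPM and spliced cells 139, 207 and 164 FPM. In DM3 genomic cells had 92.7, 119 and 87.7 FPM, control cells 51.6, 86.9 and 90.7 FPM and spliced cells 277, 189 and 172 FPM. Spliced cells thus held the most Cdh15 in either medium, and genomic cells went from the lowest level in GM to a range that overlapped control in DM3.

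In GM Cdh15 was 3.67 times as high in spliced as in control cells (log2 change 1.83, SE 0.23, limma adjusted p 1.59e-05), and genomic cells had 0.494 times the control level (log2 change -1.01, limma adjusted p 0.00350). The spliced lines differed from the genomic ones by 2.85 in GM (limma adjusted p 5.64e-08) and by 1.06 in DM3 (limma adjusted p 0.00126). Spliced cells exceeded control in DM3 by 1.48 (limma adjusted p 8.06e-05). For genomic against control cells in DM3 the value was 0.41 (95% confidence interval -0.07 to 0.90, limma adjusted p 0.166). On differentiation Cdh15 rose in genomic cells by 2.10 (limma adjusted p 3.15e-06) and in control cells by 0.67 (limma adjusted p 0.0196), while spliced cells gave 0.31 (limma adjusted p 0.301). The control rise was lost without control GM replicate 1 (0.64) and without control DM3 replicate 2 or 3 (0.56 and 0.53).

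The promoter of Cdh15 is shown because its level separated all 3 lines in GM, next to that of Myof, the tested gene with the fewest calls of those with a promoter entry. Both are RefSeq windows of 300 bases on GRCm38.p6, from 250 bases before the annotated start to 50 after it, written 5′ to 3′ on the strand of the gene. Capitals mark E-boxes, the letters CANNTG with any bases in the middle, so that a match on a strand is also a match on the other. MyoD and myogenin bind sites of this kind, and which middle letters they prefer was not weighed. The Cdh15 window is chr8:122848124-122848423 on the plus strand and the Myof window chr19:38043528-38043827 on the minus strand. All of the Cdh15 window lies downstream of the gene start given above, 122847966, so its RefSeq start is a different one. The Myof window spans the gene start at 38043577, so the windows are placed unlike in their genes.
Cdh15: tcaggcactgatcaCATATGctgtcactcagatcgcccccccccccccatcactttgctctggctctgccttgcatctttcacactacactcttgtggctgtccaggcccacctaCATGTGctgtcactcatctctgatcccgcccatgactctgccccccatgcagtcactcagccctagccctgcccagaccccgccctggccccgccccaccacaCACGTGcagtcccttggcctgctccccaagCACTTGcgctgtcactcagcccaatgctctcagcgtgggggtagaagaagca
Myof: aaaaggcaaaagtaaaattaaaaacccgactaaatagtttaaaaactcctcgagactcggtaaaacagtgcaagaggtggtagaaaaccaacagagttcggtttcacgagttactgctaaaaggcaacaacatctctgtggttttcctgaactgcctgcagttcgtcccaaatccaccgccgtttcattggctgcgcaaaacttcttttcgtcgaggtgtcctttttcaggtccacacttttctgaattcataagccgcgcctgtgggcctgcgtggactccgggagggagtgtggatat
Cdh15 had 4 E-boxes, at 236, 135, 32 and 2 bases before the RefSeq start, and Myof had 0. Of 32851 mouse promoters of the same length, 72.3% held at least 1 E-box and 6.49% at least 4. Entries were found for 4 of the 10 genes: the Cav3 window held 2 E-boxes, and the Dysf windows, at 2 annotated starts, held 0 and 1. No binding was measured, and these matches describe letters in the windows alone.

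Ncam1 encodes neural cell adhesion molecule, which myoblasts carry on their surface and raise as they fuse, and lies on chromosome 9 (49502136 to 49798925, minus strand). Control GM libraries held 41.9, 64.3 and 60.3 FPM and control DM3 libraries 47.9, 70.3 and 58.8 FPM. Spliced cells had 95.7, 121 and 115 FPM in GM and 169.7, 129 and 142 FPM in DM3, all above every control library. Genomic cells had 66.7, 82.7 and 60.0 FPM in GM, overlapping control, and 94.3, 84.0 and 106 FPM in DM3, above it.

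Spliced cells exceeded control in Ncam1 by 0.998 in GM (1.99-fold, SE 0.18, limma adjusted p 0.000415) and by 1.31 in DM3 (2.49-fold, limma adjusted p 2.06e-05). They also exceeded genomic cells, by 0.66 in GM (limma adjusted p 0.00796) and 0.62 in DM3 (limma adjusted p 0.00901). Genomic cells exceeded control by 0.69 in DM3 (limma adjusted p 0.00541) and stood at 0.34 in GM (95% confidence interval -0.04 to 0.71, limma adjusted p 0.180). On differentiation the genomic rise of 0.44 was just called (limma adjusted p 0.0467), and was lost in 7 of 18 fits that each left out 1 library, those without replicate 1 or 3 of genomic GM or genomic DM3 or without replicate 3 of spliced GM, control DM3 or spliced DM3 (0.34 to 0.44), and under 3 of 9 other settings. The spliced change of 0.40 was not (limma adjusted p 0.0856), and the control change was 0.09 (limma adjusted p 0.682). An antisense gene, Gm11149, shares 417 exon bases with Ncam1, and whether counting used strand was not given in the sources used here.

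Jam2 and Jam3 encode junctional adhesion molecules of the immunoglobulin superfamily, which bind each other across neighbouring cells. In DM3 they were called in opposite directions against control in both MUNC lines, Jam2 lower and Jam3 higher. In GM spliced cells were called against control for Jam3 alone and genomic cells for Jam2 alone. Jam2 lies on chromosome 16 (84774123 to 84825928, plus strand). Control libraries held 50.5, 70.6 and 61.6 FPM in GM and 47.6, 66.5 and 54.9 FPM in DM3, and spliced GM libraries 56.3, 62.2 and 56.8 FPM. The other groups lay lower, at 33.3, 38.6 and 36.7 FPM in genomic GM, 27.3, 30.3 and 24.6 FPM in genomic DM3 and 33.3, 26.1 and 23.7 FPM in spliced DM3. None of these 9 libraries reached the lowest control library.

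Against control DM3, Jam2 was lower in spliced and in genomic cells, with log2 changes of -0.9999 and -1.004 (SE 0.15, limma adjusted p 5.40e-05 and 4.88e-05), at 0.491 and 0.487 times the control level. The difference between the lines in DM3 was 0.00 (95% confidence interval -0.31 to 0.32). In GM only the genomic cells differed from control by this test, with a change of -0.72 (limma adjusted p 0.00171), while spliced cells gave -0.05 (95% confidence interval -0.36 to 0.27), and the difference between the lines was itself called (0.68, limma adjusted p 0.00205). Jam2 thus fell on differentiation in spliced cells (log2 change -1.06, limma adjusted p 7.81e-05) and in genomic cells (-0.39, limma adjusted p 0.0369). The genomic fall was lost without any 1 of genomic GM replicates 2 and 3 and genomic DM3 replicates 1 and 3 (-0.32 to -0.39), under quantile normalization (-0.30) and without a filter on low values.

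Jam3, on chromosome 9 (27097384 to 27155421, minus strand), was at 12.6, 10.8 and 10.96 FPM in control cells in GM, and DM3 control libraries held 9.83, 9.92 and 8.88 FPM. Spliced cells held 18.7, 15.5 and 15.8 FPM in GM and 16.8, 19.2 and 15.9 FPM in DM3, above all other libraries. Genomic cells held 11.4, 11.01 and 9.98 FPM in GM and 14.9, 11.97 and 10.97 FPM in DM3. Spliced cells exceeded control by 0.50 in GM (SE 0.13, limma adjusted p 0.00668) and by 0.79 in DM3 (limma adjusted p 0.000128). The excess of spliced over genomic cells was 0.58 in GM (limma adjusted p 0.00217) and 0.43 in DM3 (limma adjusted p 0.0123). The last call was lost without spliced DM3 replicate 2 (0.36) or genomic DM3 replicate 3 (0.35). Genomic cells exceeded control DM3 by 0.36 (limma adjusted p 0.0356), a call lost without any 1 of the 3 control DM3 libraries or genomic DM3 replicate 1 or 2 (0.24 to 0.39) and in a fit of only the groups compared. In the main fit Jam3 was not called for genomic against control cells in GM, nor on differentiation in any line. An antisense gene, Gm48796, shares 1159 of 3200 exon bases with Jam3, and reads of the pair could be told apart only by strand.

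Adam12 encodes a disintegrin and metalloprotease that is made in forming and regenerating muscle, and lies on chromosome 7 (133883199 to 134232146, minus strand). In control cells it went from 13.98, 19.8 and 35.9 FPM in GM to 1.86, 2.88 and 2.87 FPM in DM3. Genomic cells had 35.4, 26.0 and 68.6 FPM in GM and 7.84, 12.3 and 9.25 FPM in DM3, and spliced cells 14.5, 12.7 and 20.8 FPM in GM and 24.6, 9.37 and 7.52 FPM in DM3. The media did not overlap in control or genomic cells and did overlap in spliced cells, where DM3 replicate 1 was the highest library.

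Adam12 fell on differentiation by 2.69 on the log2 scale in control cells (SE 0.41, limma adjusted p 3.68e-05), to 0.109 times its level, and in genomic cells (log2 change -1.94, limma adjusted p 0.000852). In spliced cells the change was -0.34 (95% confidence interval -1.20 to 0.52, limma adjusted p 0.537). In DM3 both lines exceeded control, spliced by 1.91 (5.45-fold, limma adjusted p 0.00127) and genomic by 1.60 (3.85-fold, limma adjusted p 0.00479), and all 3 libraries of each line lay above all 3 of control. In GM spliced cells were lower than genomic cells by 1.30 on the log2 scale (log2 change -1.30, limma adjusted p 0.0199), a call lost without spliced GM replicate 1 or 2 (-1.24 and -1.16) or genomic GM replicate 3 (-0.91). Neither line was called against control in GM, at -0.44 for spliced (limma adjusted p 0.427) and 0.86 for genomic cells (limma adjusted p 0.133). The lines differed in DM3 by 0.31 (limma adjusted p 0.569), and by -0.18 without spliced DM3 replicate 1.

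Cdh2 encodes N-cadherin, the other classical cadherin of myoblasts, and lies on chromosome 18 (16588877 to 16809246, minus strand). Every library was between 102 and 174 FPM. Genomic DM3 libraries were tightly grouped at 163, 166 and 165 FPM, against 107, 113 and 132 FPM in genomic GM and 135, 137 and 102 FPM in control DM3. Control GM held 122, 136 and 169 FPM, spliced GM 136, 129 and 152 FPM and spliced DM3 174, 174 and 128 FPM. Cdh2 rose on differentiation in genomic cells by 0.49 (SE 0.15, limma adjusted p 0.0113). Genomic cells exceeded control in DM3 by 0.41 (limma adjusted p 0.0356), a call lost without control DM3 replicate 3 (0.27), without any 1 genomic DM3 library (0.40 to 0.42) and without a filter on low values. The control change was -0.19 (limma adjusted p 0.285), the spliced change was 0.18 (limma adjusted p 0.358), and spliced against control in DM3 gave 0.34 (95% confidence interval 0.03 to 0.65, limma adjusted p 0.0701).

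Dysf encodes dysferlin, the ferlin of membrane repair whose loss causes limb-girdle muscular dystrophy, and lies on chromosome 6 (84008590 to 84211060, plus strand). It was lower outside spliced DM3 than in it: 3.18, 1.72 and 0.860 FPM in GM control libraries, 3.17, 2.72 and 2.21 FPM in control DM3, and 1.82, 2.80 and 1.77 FPM in spliced GM. Genomic cells held 2.56, 3.82 and 1.51 FPM in GM and 4.12, 3.77 and 2.87 FPM in DM3. The spliced DM3 libraries were at 10.9, 6.83 and 7.01 FPM, above the other 15.

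Dysf rose in spliced cells on differentiation by 1.55 (3.88-fold, SE 0.27, limma adjusted p 0.000487). In DM3 it exceeded control by 1.30 (3.06-fold, limma adjusted p 0.00117) and genomic cells by 0.996 (limma adjusted p 0.00749). These 3 calls held in all 18 fits that left out 1 library and under all 9 other settings. The change on differentiation was 0.41 in control (limma adjusted p 0.210) and 0.38 in genomic cells (limma adjusted p 0.268), and genomic cells stood 0.31 above control in DM3 (95% confidence interval -0.27 to 0.89, limma adjusted p 0.401). Antisense genes Gm15475 and Gm33024 share 352 and 105 exon bases with Dysf.

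Myof encodes myoferlin, a ferlin of dividing and fusing myoblasts, and lies on chromosome 19 (37899036 to 38043577, minus strand). It was the steadiest of the repair genes, between 295 and 502 FPM in all 18 libraries. Control cells held 295, 475 and 425 FPM in GM and 452, 473 and 502 FPM in DM3, spliced cells 385, 480.4 and 428 FPM and 409, 407 and 444 FPM, and genomic cells 345, 397 and 375 FPM and 316, 313 and 424 FPM. The 1 call was in DM3, where genomic cells were lower than control (log2 change -0.45, SE 0.16, 0.738 times, limma adjusted p 0.0296). It was lost without control DM3 replicate 2 or 3 or genomic DM3 replicate 1 or 2 (-0.38 to -0.45), under quantile normalization (-0.40) and without a filter on low values. The change on differentiation was 0.28 in control cells (limma adjusted p 0.132), -0.03 in spliced cells (95% confidence interval -0.36 to 0.30) and -0.10 in genomic cells (limma adjusted p 0.635). Spliced against control cells in DM3 gave -0.18 (limma adjusted p 0.374).

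Cav3, the gene of the muscle caveolin on chromosome 6 (112459505 to 112472872, plus strand), was hardly read at all. It had 9 reads in replicate 1 of spliced DM3 (0.171 FPM), 1 read in replicate 1 of spliced GM and 0 reads in the other 16 libraries. The floor of 3 reads corresponded to between 0.0429 and 0.0757 FPM a library, so that 1 library alone lay above it. Its partner in caveolae of muscle, Cavin4, was at 198, 119.7 and 159.6 FPM in spliced DM3 and 25.3, 28.0 and 31.7 FPM in control DM3.

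**Figure D3:**
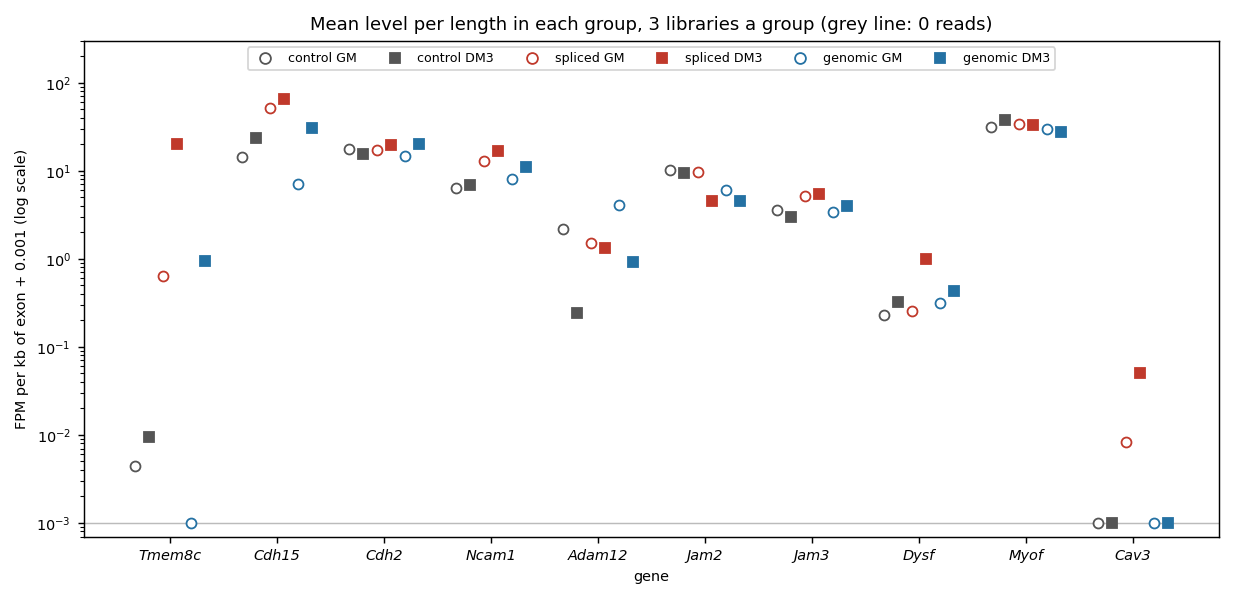
Mean FPM per kb of exon + 0.001 (vertical axis, log scale) of each of the 10 genes in the 6 groups, over 3 libraries each; the grey line marks 0 reads. In control GM the order ran from Myof at 31.6 down to Cav3 at 0, and Tmem8c covers the widest range between groups.

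Levels of different genes were compared after division by the length of their exons. In control GM the level was 31.6 FPM per kb for Myof, 17.7 for Cdh2, 14.2 for Cdh15, 10.1 for Jam2 and 6.41 for Ncam1. Below these stood Jam3 at 3.58 FPM per kb, Adam12 at 2.20, Dysf at 0.230 and Tmem8c at 0.00339, with Cav3 at 0. In spliced DM3 the order of levels was headed by Cdh15, at 65.5 FPM per kb, ahead of Myof at 33.3. The Tmem8c level there was 42.2, 7.83 and 10.2 FPM per kb in the 3 libraries, a mean of 20.1, or 8.99 without replicate 1. Cdh2 held 21.5, 21.6 and 15.8 FPM per kb, so that Tmem8c was above it in replicate 1 and below it in the other two. Dysf remained low per length in spliced DM3, with a mean of 0.991 FPM per kb next to Adam12 at 1.31. In genomic DM3 the Tmem8c level was 0.941 FPM per kb, next to Adam12 at 0.926. Where 2 starts or isoforms of unequal length are used, the exon length counts all of them.

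Within the 18 libraries the log2 levels of Tmem8c ran most closely with those of Dysf (Pearson r 0.84) and Ncam1 (0.81). Cdh15 (0.72), Jam3 (0.66) and Cdh2 (0.50) came next. Jam2 ran against Tmem8c (-0.54), and Myof (0.04) and Adam12 (0.01) did not follow it. These are descriptions over 18 libraries that share lines and media. Values without spliced DM3 replicate 1, the library with the most Tmem8c, are not given here.

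The first comparison asked what changed in each line from GM to 3 days in differentiation medium. In control cells 2 of the 9 tested genes were called, Cdh15 up and Adam12 down, where 58.2% of all genes tested were. The control count was 1 without control DM3 replicate 2 or 3. In spliced cells 3 were called, Tmem8c and Dysf up and Jam2 down, against 35.6% of all genes. In genomic cells 6 were called, with Cdh15, Tmem8c, Cdh2 and Ncam1 up and Adam12 and Jam2 down, against 51.4% of all genes. No gene of the 9 was called in the same direction in all 3 lines, although the 3 sets of values do not by themselves test a difference between lines. The median log2 change of the 9 genes was 0.01 in control, 0.18 in spliced and 0.38 in genomic cells, beside 0.02, -0.01 and 0.02 for all genes tested.

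**Figure D4:**
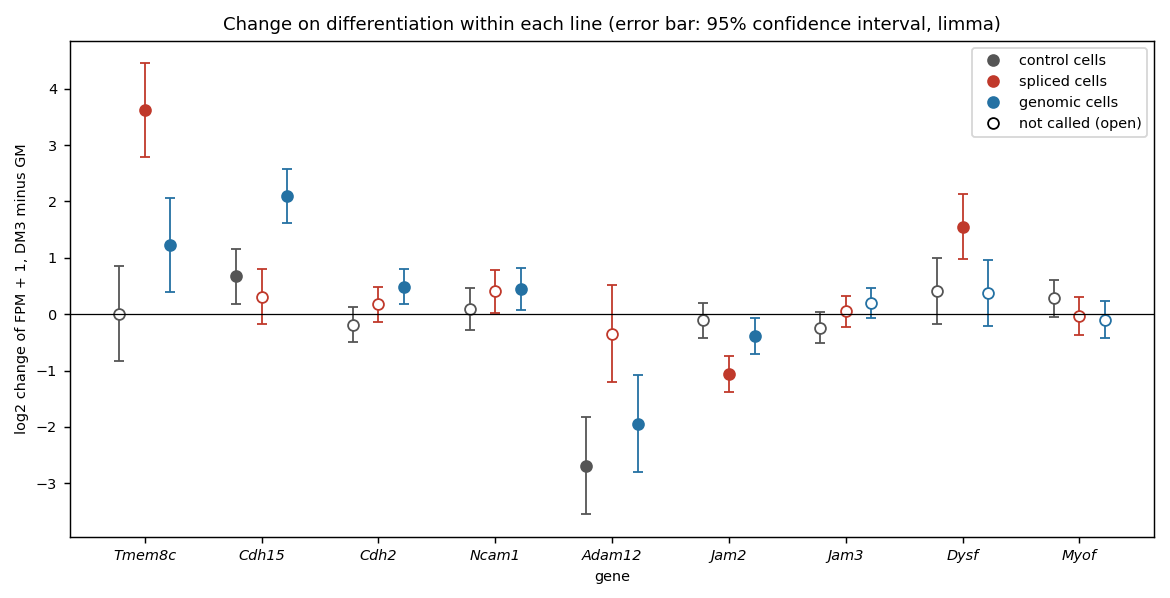
Log2 change of FPM + 1 from GM to DM3 (vertical axis) of the 9 tested genes in control, spliced and genomic cells, with 95% confidence intervals from limma; filled points were called. Tmem8c rose by 3.62 in spliced and 1.23 in genomic cells, and Adam12 fell in control and genomic cells with -2.69 and -1.94.

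A further comparison asked how the cells of each MUNC line differed from control in the same medium. The part of MUNC itself, apart from other differences between the lines, was not tested. In GM spliced cells differed in 3 of 9, Cdh15, Ncam1 and Jam3, all higher, where 35.5% of all genes were called. In GM genomic cells differed in 2, Cdh15 and Jam2, both lower, where 26.8% of all genes were. After 3 days in DM3 spliced cells differed in 7, against 43.3% of all genes: Tmem8c, Adam12, Cdh15, Ncam1, Dysf and Jam3 were higher and Jam2 lower. Genomic cells also differed from control in 7 in DM3, against 40.3% of all genes: Adam12, Tmem8c, Ncam1, Cdh2 and Jam3 were higher and Jam2 and Myof lower. The median log2 change in DM3 was 1.30 for spliced and 0.41 for genomic cells, beside 0.01 and -0.01 over all genes. Both lines were set against the same control libraries. The genomic count in DM3 was 4 without a filter on low values and 3 to 7 with 1 library left out: it was 3 without control DM3 replicate 3 or genomic DM3 replicate 2, and 4 without control DM3 replicate 2 or genomic DM3 replicate 1.

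The 2 MUNC lines were also compared directly. In GM spliced and genomic cells differed in 5 of 9, against 35.8% of all genes, with Cdh15, Jam2, Ncam1 and Jam3 higher and Adam12 lower in spliced cells. In DM3 they differed in 5, against 44.2% of all genes, with Tmem8c, Cdh15, Dysf, Ncam1 and Jam3 all higher in spliced cells. The median of the 9 log2 changes was 0.58 in GM and 0.43 in DM3, beside 0.02 and 0.03 for all genes.

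**Figure D5:**
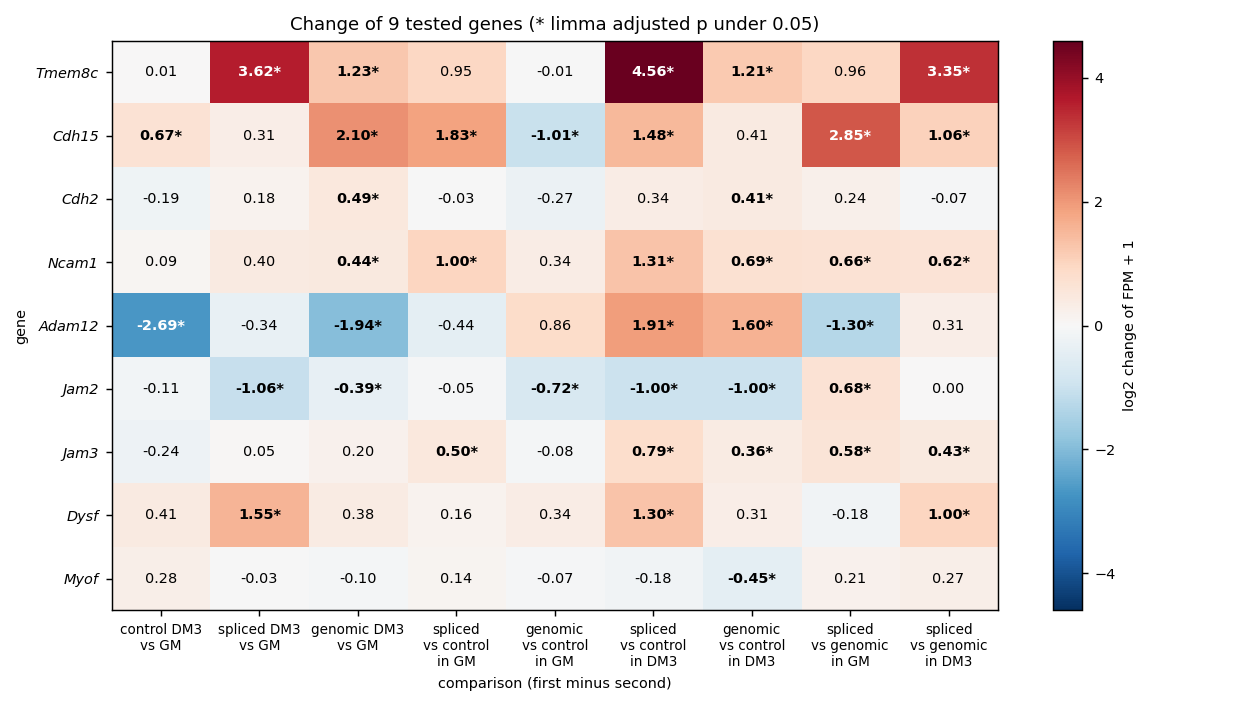
Log2 change of FPM + 1 of the 9 tested genes (rows) in 9 comparisons (columns, first group minus second), by colour and value; an asterisk marks a limma adjusted p under 0.05. The spliced DM3 columns hold the highest values, led by Tmem8c at 4.56 against control, and Jam2 is lower than control in DM3 in both MUNC lines, with -0.9999 and -1.004.

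A further test, the interaction, compared the change from GM to DM3 between 2 lines. Spliced against control cells it was called for 3 of 9 genes, against 14.4% of all genes: Tmem8c (3.61, SE 0.56, limma adjusted p 0.000981), Adam12 (2.34, limma adjusted p 0.0145) and Jam2 (-0.95, limma adjusted p 0.00843). In genomic cells it was called for 1, Cdh15 (1.43, SE 0.32, limma adjusted p 0.0108), against 8.81% of all genes. The value for Tmem8c in genomic cells was 1.22 (limma adjusted p 0.210), and it was called with a pseudocount of 0.1 (3.71), in a fit of only the groups compared and by DESeq2 on recovered reads (7.72). Between spliced and genomic cells 2 were called, Tmem8c (2.39, limma adjusted p 0.0123) and Cdh15 (-1.78, limma adjusted p 0.00223), against 10.5% of all genes.

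The Tmem8c interactions depended on the scale. On recovered reads edgeR and DESeq2 gave 4.08 and 3.91 in spliced cells and called neither (adjusted p 0.572 and 0.142). Between spliced and genomic cells edgeR and DESeq2 gave -4.33 and -3.81 (adjusted p 0.269 and 0.106), the opposite sign to limma. Genomic GM held 0 Tmem8c reads, so a fitted fold against it depends on the prior count. Without spliced DM3 replicate 1 the limma values were 2.89 and 1.67, both called. The Adam12, Jam2 and Cdh15 interactions that limma called were called under all 9 other settings and in all 18 fits that left out 1 library. Not called by limma were Dysf in spliced cells (1.14, adjusted p 0.0597) and against genomic cells (1.18, adjusted p 0.0643), Cdh2 in genomic cells (0.67, adjusted p 0.0542), Adam12 between spliced and genomic cells (1.60, adjusted p 0.0877) and in genomic cells (0.74, adjusted p 0.489), Jam2 between spliced and genomic cells (-0.67, adjusted p 0.0518). Of these, Jam2 was called under 5 of 9 other settings, Cdh2 under 4, each Dysf interaction under 2, and Adam12 between spliced and genomic cells under 1. The settings that called Jam2, Cdh2 and each Dysf interaction included limma with the replicate number as a block.

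Other genes of fusion, membrane repair and adhesion were described by 3 lists. The fusion machinery list held 37 genes of receptors, integrins, tetraspanins, Rac and Arf regulators and actin remodellers known from fusion, of which 32 were tested. In control cells 14 rose and 5 fell on differentiation, which is 59.4% of those tested beside 58.2% of all genes, with a median log2 change of 0.24 beside 0.02. Kirrel3, a nephrin-like adhesion receptor, rose by 1.20 (limma adjusted p 0.000463) and Elmo1, a partner of the Dock proteins that activate Rac, by 1.22 (limma adjusted p 0.00480), while Ehd1 (-0.76, limma adjusted p 0.000530) and Elmo2 (-0.39, limma adjusted p 0.00210) fell. Mymx had 4 reads in control GM and 9 in control DM3.

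In DM3, 7 genes of the fusion machinery list were higher and 11 lower in spliced than in control cells (56.2% of those tested beside 43.3% of all genes; median -0.12, beside 0.01). Mymx (2.83, limma adjusted p 7.91e-07) and Boc, a receptor that joins cadherin contacts (1.05, limma adjusted p 0.00238), were higher. Il4ra, the interleukin 4 receptor chain (-1.39, limma adjusted p 0.000222), and Dock5, an exchange factor for Rac (-1.30, limma adjusted p 0.000187), were lower. In genomic cells 6 were higher and 9 lower than control (46.9% beside 40.3%; median -0.14, beside -0.01). These were led by Kirrel3 (1.55, limma adjusted p 6.99e-05) and Mymx (1.44, limma adjusted p 0.000633) upward, and by Dock5 (-1.17, limma adjusted p 0.000494) and Arhgap10 (-1.10, limma adjusted p 7.04e-08) downward. Spliced cells had 8 higher and 9 lower than genomic cells (53.1% beside 44.2%, median -0.13 beside 0.03), with Boc (1.89, limma adjusted p 9.14e-06) and Rnd3 (1.84, limma adjusted p 1.13e-06) higher and Kirrel3 (-1.89, limma adjusted p 7.83e-06) and the tetraspanin gene Cd9 (-1.45, limma adjusted p 9.95e-06) lower.

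The membrane repair list held 30 genes of annexins, calpains, caveolins and cavins, vesicle and scission proteins and other ferlins, of which 29 were tested. On differentiation of control cells 11 rose and 6 fell (58.6% of those tested beside 58.2% of all genes, median 0.05 beside 0.02). Capn3, the muscle calpain, rose by 2.602 (limma adjusted p 2.70e-06) and Cavin2 by 1.60 (limma adjusted p 0.000763), whereas Anxa2, an annexin recruited to membrane wounds (-1.52, limma adjusted p 3.03e-06), and Cavin1 (-0.85, limma adjusted p 5.51e-06) fell. In DM3 spliced cells had 7 higher and 9 lower than control (55.2% beside 43.3%, median -0.24 beside 0.01), with Cavin4 (2.43, limma adjusted p 1.38e-08) and Trim72, the repair protein that binds caveolin 3 and dysferlin (1.91, limma adjusted p 1.92e-05), higher. Fer1l6, a further ferlin (-1.08, limma adjusted p 4.06e-05), and Cav1, the caveolin of most cells (-0.96, limma adjusted p 0.000205), were lower.

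Genomic cells in DM3 had 9 genes of the membrane repair list higher and 6 lower than control (51.7% beside 40.3% of all genes, median 0.04 beside -0.01). The annexins Anxa2 (0.75, limma adjusted p 0.00274) and Anxa5 (0.69, limma adjusted p 0.00420) were higher, and Cavin4 (-0.90, limma adjusted p 0.000476) and Fer1l6 (-0.88, limma adjusted p 0.000272) were lower. Between the lines in DM3, 3 were higher and 8 lower in spliced cells (37.9% beside 44.2%, median -0.20 beside 0.03), with Cavin4 (3.32, limma adjusted p 1.36e-10) and Trim72 (1.78, limma adjusted p 3.06e-05) higher and Anxa1 (-1.17, limma adjusted p 4.30e-06) and Capn1 (-0.63, limma adjusted p 0.000718) lower. Trim72 itself was at 7.65, 1.99 and 2.51 FPM in spliced DM3 and at most 0.377 FPM in genomic DM3.

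The adhesion partners list held 23 genes of other cadherins, catenins, junction and immunoglobulin proteins, sialyltransferases and other Adam proteases, of which 16 were tested. In control cells 6 rose and 1 fell on differentiation (43.8% beside 58.2% of all genes, median 0.10 beside 0.02). F11r, the gene of JAM-A and thus a relative of Jam2 and Jam3, rose by 1.74 (limma adjusted p 6.92e-05) and Tjp1, a tight junction scaffold, by 1.08 (limma adjusted p 0.000408). L1cam, a relative of Ncam1, was the 1 gene to fall (-0.69, limma adjusted p 0.0226), a call lost without control GM replicate 2 or 3 or control DM3 replicate 1 or 2 (-0.53 to -0.66), with a pseudocount of 0.1 and in a fit of only the groups compared. In DM3 spliced cells had 4 higher and 5 lower than control (56.2% beside 43.3%, median -0.03 beside 0.01): Adam19 (1.05, limma adjusted p 0.00631) and Cdh13 (0.68, limma adjusted p 0.00725) higher, L1cam (-6.09, limma adjusted p 2.16e-11) and Adam15 (-0.78, limma adjusted p 5.45e-06) lower. The 5 lower became 3 under quantile normalization, 2 with equal sums per library, and 2 or 3 without control DM3 replicate 1 or 2 or any 1 spliced DM3 library.

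Genomic cells in DM3 had 8 adhesion partners higher and 3 lower than control (68.8% of those tested beside 40.3% of all genes, median 0.24 beside -0.01). F11r was 4.18 higher (limma adjusted p 5.08e-09), at 81.3, 76.8 and 105 FPM against 6.28, 3.24 and 2.71 FPM, and Adam19 3.37 higher (limma adjusted p 6.38e-08). L1cam (-3.33, limma adjusted p 1.32e-08) and Cdh13 (-0.49, limma adjusted p 0.0461) were lower, the latter a call lost under 5 of 9 other settings and in 11 of 18 fits that left out 1 library, with values of -0.40 to -0.56. Those fits were the ones without any 1 control or genomic DM3 library, spliced DM3 replicate 2 or 3, control GM replicate 2, spliced GM replicate 1 or genomic GM replicate 2. Between the lines in DM3, 3 were higher and 10 lower in spliced cells (81.2% beside 44.2%, median -0.53 beside 0.03). Cdh13 (1.17, limma adjusted p 8.10e-05) and Ctnnd1, the catenin p120 (0.58, limma adjusted p 0.00101), were higher, and F11r (-4.90, limma adjusted p 5.71e-10) and L1cam (-2.76, limma adjusted p 1.14e-07) were lower. L1cam stood at 0.911, 0.174 and 0.344 FPM in spliced DM3, 7.78, 9.23 and 9.46 FPM in genomic DM3 and 85.6, 94.3 and 115 FPM in control DM3.

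Markers of cell types also differed between groups, though Des did not separate spliced from control DM3. Des, the gene of the muscle filament desmin, was at 94.4, 37.3 and 44.7 FPM in spliced DM3 and 1010.0, 820.4 and 863 FPM in genomic DM3, against 64.2, 76.2 and 92.0 FPM in control DM3. The sum of 5 fibroblast markers was 13289 to 13817 FPM in spliced DM3, 9749 to 11121 FPM in genomic DM3 and 6915 to 8200 FPM in control DM3. The sum of 4 smooth muscle markers was 1908 to 3119 FPM, 2219 to 3507 FPM and 1257 to 1369 FPM in the same groups, with Myh11 under 0.5 FPM in all libraries. The sum of 5 adipocyte markers was 22.3 to 23.0 FPM in spliced DM3, 9.38 to 11.4 FPM in genomic DM3 and 8.03 to 10.5 FPM in control DM3, with Adipoq and Plin1 under 0.5 FPM throughout. In the same order, endothelial markers summed to 1.05 to 1.59 FPM, 4.01 to 5.28 FPM and 0.250 to 0.612 FPM, and macrophage markers, of which Cd68 alone was read above 0.5 FPM, to 0.854 to 1.59 FPM, 1.35 to 1.75 FPM and 2.65 to 5.05 FPM. Schwann cell markers, of which 2 of 4 stayed under 0.5 FPM in all libraries, summed to 5.30 to 7.63 FPM in spliced DM3. Their sum was 2.32 to 2.95 FPM in genomic DM3 and 1.20 to 1.27 FPM in control DM3. The part of all these markers in the differences of the fusion and repair genes was not tested.

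The authors' deposited table for control cells on differentiation listed an adjusted p under 0.05 for 2 of the 8 genes to which it gave one, where 43.2% of all genes with one were under it. In GM the authors' deposited table for spliced against control cells did so for 4 of 9 (25.3% of all genes), and that for genomic against control cells for 2 of 8 (19.9%). In DM3 the authors' deposited tables did so for 7 of 10 in spliced (33.1% of all genes) and 7 of 9 in genomic cells (39.3%). These counts rest on the same libraries as those above.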

How the data were processed

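Poly(A) RNA of 18 C2C12 libraries was sequenced on Illumina instruments. The submitters' processing notes name STAR, HTSeq, DESeq2 and the build mm10, with no roles; annotation and strand use were not given in the sources used here. The authors deposited a signal per gene, FPM (gene reads scaled by a factor of the library, without gene length; a label calls it FPKM), in which each value was a whole multiple of 1 step per library within 0.05 read, for 100% of values, so reads were recovered. Log2 changes, p-values and adjusted p-values in the authors' deposited tables were copied as listed; the mean and the test score that the authors deposited beside them were not used. On recovered reads edgeR called 8034 genes in control cells on differentiation, against 8078 by limma. Groups came from the sample titles; another label, which names myoblasts or myotubes, went against the title in 9 of 18 samples.

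Differences were tested on log2(FPM + 1) with limma 3.58.1 (R 4.3.3), with 1 fit of all 18 libraries (12 residual degrees of freedom), for the 13869 genes that reached 0.5 FPM in 3 libraries or more, with Benjamini-Hochberg adjustment and a threshold of 0.05. The fit was tested on simulated data. Other settings were a pseudocount of 0.1, no filter, equal sums, quantile and TMM scaling, only the groups compared, the replicate number as a block, edgeR 4.0.16 and DESeq2 1.42.0 on recovered reads, and each library left out in turn. The 10 genes and the lists were chosen with earlier results of these data known. List genes were named by a rule: the 2 called genes with the largest change in each direction, among those with a group mean of at least 1 FPM. Pooled read ratios carry exact 95% intervals. Exon lengths came from the GRCm38 annotation, and promoters from RefSeq GRCm38.p6 without chromosome 18.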

Additional observations from a re-analysis of the deposited data

Results flagged for a closer look

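In 6 cases the change on differentiation differed between lines by a test of the difference itself (limma interaction). Tmem8c changed more in spliced than in control cells by 3.61 and more in spliced than in genomic cells by 2.39 on the log2 scale; by edgeR and DESeq2 on recovered reads the first was not called and the second had the opposite sign and was not called. Adam12 fell in control cells and did not pass the test in spliced cells, a difference of 2.34. Jam2 fell further in spliced than in control cells, with a difference of -0.95. Cdh15 rose more in genomic than in control cells by 1.43, and the change in spliced cells was smaller than that in genomic cells, with a difference of -1.78. The Adam12, Jam2 and Cdh15 differences had an adjusted p under 0.05 in all 18 fits without 1 library and under all 9 other settings.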

How the results depend on the processing

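Other settings were run for 79 of the 108 values of single genes (9 genes in 12 comparisons), namely those called or printed. Over these, 667 repeats stayed on the same side of the threshold under the other settings, 13 lost a call, 29 gained one and 2 reversed; with 1 library left out the counts were 1355, 37, 25 and 5. For genes called, genomic against control cells in DM3 gave 7 (main), 4 with no filter and 3 to 7 with 1 library left out. Control cells on differentiation gave 1 to 3 with 1 library left out. The genomic interaction gave 1 (main), 2 with a pseudocount of 0.1, quantile normalization, TMM scaling or only the groups compared, 3 with the replicate block or DESeq2, and 1 to 2 with 1 library left out. The interaction between spliced and genomic cells gave 2 (main), 1 with a pseudocount of 0.1 or edgeR, 4 with quantile normalization or the replicate block, and 2 to 4 with 1 library left out. The causes were not tested.

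Reversed values were those of Tmem8c between spliced and genomic interactions (edgeR -4.33, DESeq2 -3.81) and of Mymx in the same comparison (limma 0.65, a pseudocount of 0.1 -1.04, edgeR -4.63, DESeq2 -4.98, adjusted p 0.0111). With 1 library left out the control change on differentiation ran from -0.094 to 0.23 for Ncam1 and from -0.24 to 0.0019 for Jam2, and the difference of Adam12 between the lines in DM3 from -0.18 to 0.62.

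Over all genes, the count called for spliced cells on differentiation was 4933 (main) and 3046 with only the groups compared. The spliced interaction had 1993 (main), 1214 with only the groups compared, 3868 with the replicate block, and 1203, 1093 and 1063 without spliced GM replicate 2 and control DM3 replicates 2 and 3. The genomic interaction had 1222 (main), 2265 with the replicate block, 777 by edgeR and 784 without control DM3 replicate 2. The interaction between spliced and genomic cells had 1460 (main), 2716 with the replicate block, and 953 and 930 without genomic GM replicate 1 and genomic DM3 replicate 3.

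Samples of different groups share replicate numbers, and 36 of 45 such pairs had correlated deviations over 0.1 (median 0.29). The rule used here asked for every pair, so the number was not taken as pairing in the main fit. This does not exclude that libraries of the same number were handled together. Pairs with different numbers had a median of -0.12, with 9 of 90 over 0.1, and 17 of 18 libraries deviated most like those of their own number, a hint from the data and not from the design. With the replicate block Dysf was called in both interactions that involve spliced cells (adjusted p 0.0122 and 0.0137, against 0.0597 and 0.0643 without it), Cdh2 and Jam3 in the genomic interaction (adjusted p 0.0447 and 0.0495), Jam2 in that between spliced and genomic cells (adjusted p 0.0208) and Jam3 in control cells on differentiation (adjusted p 0.0489, limma), and 14 membrane repair genes rather than 9 were lower in spliced than in control DM3. The adhesion partners that fell in control cells numbered 1 (main), 0 with only the groups compared and 2 by edgeR and DESeq2.

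Cav3 in all libraries but spliced DM3 replicate 1, and Tmem8c in control cells and in genomic GM, were at or under the 3-read floor.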
